A study of Mus musculus with 5 samples.

Results

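The miRNAs described here are mmu-miR-223-3p, mmu-miR-155-5p, mmu-miR-146a-5p and mmu-miR-150-5p, 4 miRNAs known from blood and immune cells, in Ago HITS-CLIP of developing mouse liver. They were chosen by name, and every entry of the deposited miRNA-target tables that carries 1 of these names was taken, which gave 22485 of 3254259 entries and 4 of the 995 miRNAs listed. All 4 were listed at each of the 5 stages, and their names are given below without the species prefix.

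In HITS-CLIP, RNA is crosslinked by ultraviolet light to the Argonaute (Ago) protein that carries miRNAs, the complexes are pulled down with antibodies, and the bound miRNAs and mRNA fragments are sequenced. Livers of C57BL/6 mice (C57BL/6J in the study's methods) at e12.5, e15.5 and e18.5 were precipitated with Ago2 antibodies, whereas livers at P7 and from adult mice (6 to 8 weeks old) were precipitated with Ago2 and Ago1 antibodies, so that the effects of antibody and of birth cannot be told apart. Each stage is 1 table, called a library here, without labelled replicates, and every difference below is a difference between libraries that has no replicate check. The tables hold clusters of reads with a seed match to a miRNA, from 76948 clusters at e18.5 to 208193 at e12.5, and from 15914 clusters in 3′UTRs in the adult to 39452 at e12.5. Each embryonic table consists of 2 lists that the labels do not tell apart, which were joined here and are also given one by one, since they show how far values of a stage can lie from each other. The study's methods state that the assay was run in biological replicates, and neither the labels nor the tables say whether the lists are such replicates, so they were not treated as such. Intervals are Wilson 95% intervals and cover counting error only. Because whole liver was used, fewer cells of a type and less RNA per cell cannot be told apart.

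A miRNA guides Ago to mRNAs that pair with its seed, the bases near its 5′ end, and the bound mRNA is translated less or degraded sooner. The fetal liver is the main site of blood formation before birth, and hematopoietic cells leave it for the bone marrow around birth. miR-223 is known from neutrophils and their precursors, miR-155 from activated lymphocytes and macrophages, miR-146a from the feedback on Toll-like receptor signalling, and miR-150 from mature lymphocytes.

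The mature sequences show which bases define the sites counted below. They are those of RefSeq on GRCm38.p6, written 5′ to 3′ with the seed (bases 2 to 8) in capitals, and miR-146b-5p is shown beside its relative because both have the same seed. The mature miR-223-3p lies at chrX:96242884-96242905 on the plus strand, miR-155-5p at chr16:84714143-84714165 on the plus strand, miR-146a-5p at chr11:43374435-43374456 on the minus strand and miR-146b-5p at chr19:46342790-46342811 on the plus strand.
miR-223-3p: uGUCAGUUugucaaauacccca
miR-155-5p: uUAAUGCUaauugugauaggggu
miR-146a-5p: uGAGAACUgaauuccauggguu
miR-146b-5p: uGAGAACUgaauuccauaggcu
No other miRNA of the tables had the seed of miR-223-3p, miR-155-5p or miR-150-5p. miR-344f-5p shared only bases 2 to 7 with miR-223-3p and was listed at e12.5 only, with 1.37 reads per 1000000 miRNA reads (rpm). miR-532-3p shared bases 2 to 7 with miR-150-5p and lay between 14.0 rpm at P7 and 22.4 rpm in the adult, so at e12.5 (15.4 rpm) and e15.5 (17.52 rpm) its level was close to that of miR-150-5p itself. A 6mer site matches bases 2 to 7, a 7mer-m8 site bases 2 to 8, a 7mer-A1 site bases 2 to 7 with an A opposite base 1, and an 8mer site both. In GRCm38 all 15531 distinct site positions of the 4 miRNAs paired with bases 2 to 7 of their miRNA.

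The abundance of each miRNA on Ago was read from the number in its interaction names, taken as its read count, and divided by the sum over all miRNAs. The 4 miRNAs added up to 0.588% of all miRNA reads at e12.5, then 0.429% at e15.5, then 3.05% at e18.5, then 1.40% at P7 and 0.309% in the adult. miR-223-3p accounted for most of these reads in the embryonic and P7 libraries. Its level was 5217 rpm at e12.5, 3357 rpm at e15.5, 28702 rpm at e18.5, 8976 rpm at P7 and 1012 rpm in the adult. The library at e18.5 stood above all others, and there miR-223-3p ranked 6 among 644 miRNAs, against rank 57 among 585 in the adult. The 2 lists of a stage differed widely, with 3514 and 5678 rpm at e12.5, 9603 and 1298 rpm at e15.5, and 25238 and 38795 rpm at e18.5. Both lists of e18.5 lay above every other list and library, whereas e12.5 and e15.5 could not be put in order. miR-155-5p was much less abundant, with 319 rpm at e12.5, 192 rpm at e15.5, 649 rpm at e18.5, 190 rpm at P7 and 245 rpm in the adult. Both of its e18.5 lists, 675 and 574 rpm, lay above the lists of e12.5 (134 and 369 rpm) and e15.5 (215 and 185 rpm) and above the later libraries. The other 4 libraries lay within the range of the e12.5 lists.

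miR-146a-5p had its highest level after birth. It was at 331 rpm at e12.5, 733 rpm at e15.5, 1075 rpm at e18.5, 4452 rpm at P7 and 1678 rpm in the adult. Its lists of e12.5 (381 and 317 rpm), e15.5 (715 and 739 rpm) and e18.5 (917 and 1536 rpm) did not overlap between stages. The level at P7 was above all other values, and the adult level was close to the higher list of e18.5. miR-150-5p was the rarest of the 4 in every library except P7, where miR-155-5p was rarer, with 15.9 rpm at e12.5, 11.4 rpm at e15.5, 99.7 rpm at e18.5, 344 rpm at P7 and 152 rpm in the adult. These levels rest on 407, 115, 776, 4146 and 3488 reads in the same order, so e12.5 and e15.5 had few reads. In the first lists of e12.5 and e15.5 it had only 3 and 6 reads. The lists of e18.5 (109 and 73.4 rpm) lay above those of e12.5 (0.552 and 20.1 rpm) and e15.5 (2.40 and 14.3 rpm), and the libraries at P7 and adult lay above both.

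**Figure D1:**
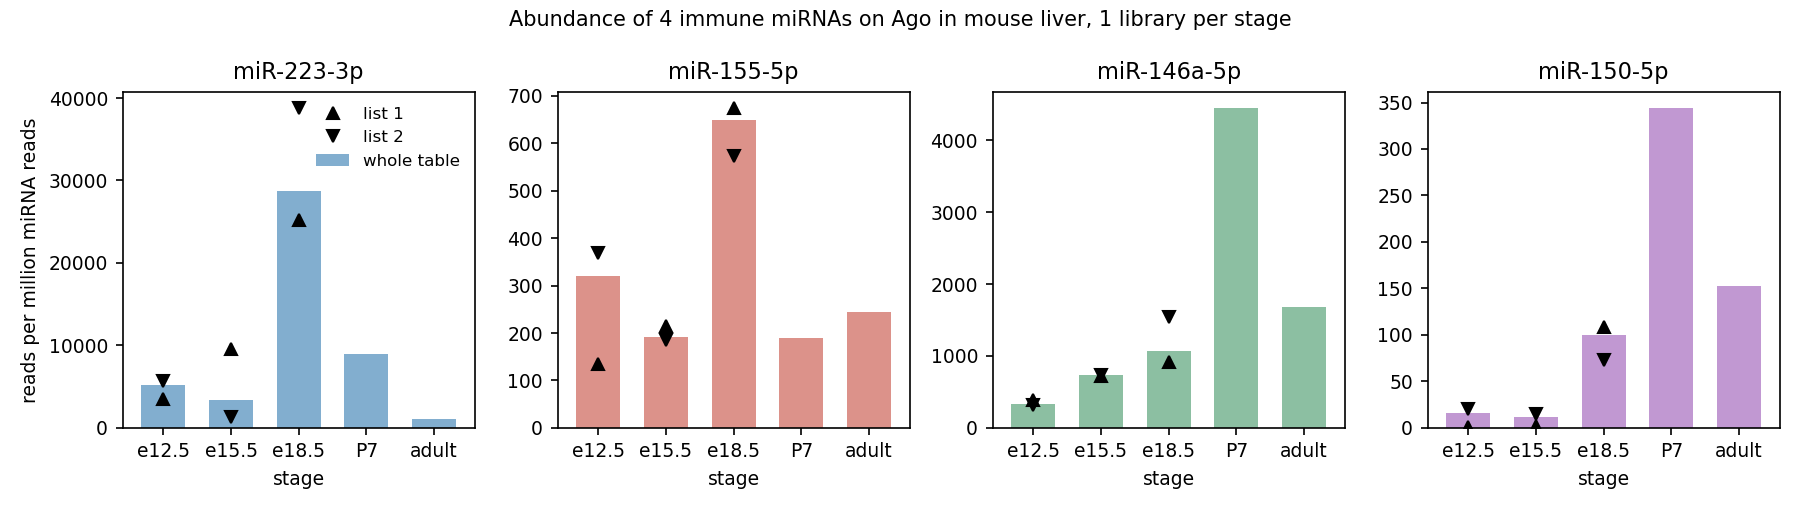
Abundance of each miRNA on Ago in rpm, reads per 1000000 miRNA reads (vertical axis, a separate scale for each miRNA) by stage (horizontal axis). Bars give the whole table and triangles the 2 lists of an embryonic table. miR-223-3p and miR-155-5p are highest at e18.5 (28702 and 649 rpm), and miR-146a-5p and miR-150-5p at P7 (4452 and 344 rpm).

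Abundance was compared between 3 pairs of libraries as a log2 ratio after adding 1 rpm, and a miRNA was counted when it lay at least 2-fold apart. Between e18.5 and e12.5, all 4 miRNAs passed this mark upward, with log2 ratios of 2.46 for miR-223-3p, 1.02 for miR-155-5p, 1.70 for miR-146a-5p and 2.57 for miR-150-5p. The size for miR-150-5p varied widely, with 6.14 from the first lists alone and 1.82 from the second. Of the 440 miRNAs with at least 10 rpm in either library, 24.5% passed it upward and 19.3% downward, and the median log2 ratio was 0.13. The value of miR-155-5p was at the edge, and it lay below the mark in 6 of the 7 alternative computations, for example at 0.64 with the second lists alone. miR-146a-5p lay just below it at 0.99 without miR-142-3p, miR-144-3p and miR-451a in the total, where 71 miRNAs were higher and 235 lower in place of 108 and 85, and these numbers were 120 and 146 with the first lists and 87 and 115 with the second. Library totals in place of miRNA totals were also tried, and e18.5 has a pair of them in the sources. With the first as divisor miR-223-3p stood at 2.37 and miR-155-5p at 0.92, whereas with both added up these values were −0.029 and −1.45, miR-146a-5p stood at −0.78 and miR-150-5p at 0.14, and the median miRNA at −2.36. Which total belongs to the reads of the table is not given in the sources used here. Between the adult and e12.5, the median over 418 miRNAs was −2.07 and 23.2% of them were at least 2-fold higher and 60% at least 2-fold lower in the adult. Taking that median as 0 turned these 97 higher and 251 lower miRNAs into 170 and 159, while the study's library totals gave 123 and 165 and the total without the 3 miRNAs 54 and 390. miR-146a-5p (log2 ratio 2.34) and miR-150-5p (3.18) were among the higher ones and stood even further above that median. With the first or second list of e12.5 alone miR-150-5p stood at 6.63 or 2.86. miR-223-3p was lower at −2.37, which is 0.30 below the median miRNA, and miR-155-5p was at −0.38, which is 1.69 above the median. The direction of miR-155-5p also turned with the first list of e12.5 alone, at 0.86, and with the study's library totals, at 0.61. Between the adult and P7, where the same step turned 43 higher and 222 lower miRNAs into 115 and 141, 11.3% of 381 miRNAs were at least 2-fold higher and 58.3% at least 2-fold lower, with a median of −1.35. miR-223-3p was lower by a log2 ratio of −3.15, while miR-146a-5p at −1.41 and miR-150-5p at −1.17 lay near that median. miR-155-5p was at 0.36, above the median by 1.71.

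The other arms of the precursors were rare. miR-223-5p was at 164 rpm at e12.5, 131 rpm at e15.5, 137 rpm at e18.5, 34.7 rpm at P7 and 2.62 rpm in the adult, so it showed no peak at e18.5 like that of miR-223-3p. miR-150-3p was listed at 0.979 rpm at e12.5, 1.93 rpm at e18.5, 35.6 rpm at P7 and 9.60 rpm in the adult, and like miR-150-5p it was highest at P7. miR-155-3p was listed in the adult only (34 reads), and miR-146a-3p at P7 and in the adult (6 and 44 reads). miR-146b-5p, which comes from a gene on another chromosome, was at 93.4 rpm at e12.5, 118 rpm at e15.5, 386 rpm at e18.5, 403 rpm at P7 and 70.5 rpm in the adult. It was therefore below miR-146a-5p in every library. Its 2 lists differed, at 121 and 85.9 rpm at e12.5 and at 13.6 and 153 rpm at e15.5, so its adult, e12.5 and e15.5 levels have no clear order.

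For each of the 4, the miRNAs with the most similar profile were sought among the 254 others with at least 100 rpm in some library, by the root mean square difference of the centred log2 levels over the 5 libraries. The nearest to miR-223-3p was miR-33-5p at 0.62, followed by miR-345-3p at 0.78, miR-183-5p and miR-450a-5p at 0.82 each, and miR-146b-5p at 0.87. The nearest to miR-155-5p was miR-106b-5p at 0.39, followed by miR-214-3p, miR-32-5p, miR-148b-3p and miR-6240. The nearest to miR-146a-5p was miR-30a-5p at 0.34, followed by miR-125b-2-3p, miR-126a-5p, miR-1247-5p and miR-99a-5p. The nearest to miR-150-5p was miR-874-3p at 0.57, and the next ones, miR-200b-3p, miR-199a-5p, let-7c-5p and miR-1981-3p, lay at 0.81 to 0.86. The median distance over all others ran from 1.39 for miR-155-5p to 2.29 for miR-150-5p.

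The sites of a miRNA were counted as the 3′UTR clusters that hold at least 1 of them. miR-223-3p had a site in 413 clusters at e12.5, then 259 at e15.5, then 290 at e18.5, then 381 at P7 and 148 in the adult. As shares of all 3′UTR clusters these were 1.05% at e12.5 (0.951 to 1.15), then 1.42% at e15.5 (1.26 to 1.60), then 1.80% at e18.5 (1.60 to 2.01), then 1.29% at P7 (1.16 to 1.42) and 0.930% in the adult (0.792 to 1.09). The share was thus highest in the library where the miRNA itself was most abundant. It was larger at e18.5 than at e12.5 with a log2 odds ratio of 0.79 ± 0.11 (SE; Fisher's exact test over 439 seed families, Benjamini-Hochberg adjusted p = 7.14e-11). In that comparison 6.15% of the families had a larger share at e18.5 and 29.8% a smaller one, and the median log2 odds ratio was −0.20. Counting genes in place of clusters brought the log2 odds ratio of miR-223-3p to 0.02 (adjusted p = 0.876 in the exact test), and the median family then stood at −0.97. Against P7, the adult share of miR-223-3p was smaller, with a log2 odds ratio of −0.47 ± 0.14 (exact test over 365 families, adjusted p = 0.00747), where 3.01% of the families had a smaller and 11% a larger share. Between the adult and e12.5 the log2 odds ratio was −0.17 (95% interval −0.44 to 0.10, adjusted p = 0.325 in the exact test). It turned to 0.17 with clusters of every region (exact test, adjusted p = 0.0173) and was −0.91 with genes (exact test, adjusted p = 1.99e-10). The median family moved likewise, to 0.17 with every region, where 197 of 388 families had a larger share, and to −0.84 with genes, where 308 of 365 had a smaller one.

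miR-146a-5p had a 3′UTR site in 374 clusters at e12.5, then 197 at e15.5, then 154 at e18.5, then 264 at P7 and 200 in the adult. The shares were 0.948% at e12.5 (0.857 to 1.05), then 1.08% at e15.5 (0.941 to 1.24), then 0.954% at e18.5 (0.815 to 1.12), then 0.892% at P7 (0.791 to 1.01) and 1.26% in the adult (1.10 to 1.44). The adult was thus highest for sites, whereas P7 was highest for abundance. The tests count its seed family, which adds the few clusters listed for miR-146b-5p alone. The adult share was larger than at P7, with a log2 odds ratio of 0.51 ± 0.14 (exact test, adjusted p = 0.00323), and larger than at e12.5, with 0.41 ± 0.13 (exact test over 366 families, adjusted p = 0.00548), where 18.3% of the families had a larger and 21% a smaller share. With sites of at least 7 matched bases the comparison with P7 gave 0.57 (exact test, adjusted p = 0.0521), and with genes in place of clusters 0.11 (exact test, adjusted p = 0.579). With genes, the comparison with e12.5 turned to −0.35 (exact test, adjusted p = 0.00923), while the median family stood at −0.84, and with the first list of e12.5 alone it was 0.22 (exact test, adjusted p = 0.307). Between e18.5 and e12.5 the log2 odds ratio was 0.01 (95% interval −0.26 to 0.28), and with genes it was −0.82 beside a median family of −0.97.

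miR-150-5p had the most sites of the 4, and its abundance was the lowest except at P7. It had a 3′UTR site in 904 clusters at e12.5, then 406 at e15.5, then 347 at e18.5, then 604 at P7 and 294 in the adult. The share was 2.29% at e12.5 (2.15 to 2.44), then 2.23% at e15.5 (2.02 to 2.45), then 2.15% at e18.5 (1.94 to 2.38), then 2.04% at P7 (1.89 to 2.21) and 1.85% in the adult (1.65 to 2.07). The adult share was smaller than that at e12.5, with a log2 odds ratio of −0.32 ± 0.098 (exact test, adjusted p = 0.00426), although the abundance in the adult library was higher. This call was lost with sites of at least 7 matched bases, at −0.28 (exact test, adjusted p = 0.117). The log2 odds ratio was −0.09 (95% interval −0.28 to 0.09) for e18.5 against e12.5 and −0.15 (−0.35 to 0.06) for the adult against P7. Both calls were made with genes, at −0.82 and −0.51, where the median families stood at −0.97 and −0.29, and the first also with clusters of every region, at −0.20 (exact test, adjusted p = 2.44e-05), beside a median of −0.08. miR-155-5p had the fewest sites, in 120 clusters at e12.5, then 52 at e15.5, then 51 at e18.5, then 83 at P7 and 48 in the adult. Its share lay between 0.280% at P7 (0.226 to 0.347) and 0.316% at e18.5 (0.240 to 0.415). None of its 3 comparisons passed the threshold, and the 95% interval of its log2 odds ratio was −0.50 to 0.47 for the adult against e12.5 and −0.42 to 0.53 for e18.5 against e12.5, so changes within these bounds were not detectable at this depth. With genes these values became −0.84 and −0.74 (exact test, adjusted p = 0.0010 and 0.00235), and with clusters of every region the adult against P7 gave 0.34 (exact test, adjusted p = 0.0290). With genes the median families stood at −0.84 and −0.97, where 308 of 365 and 413 of 438 families had a smaller share. With every region the median family stood at 0.21, and 223 of 412 families had a larger share.

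**Figure D2:**
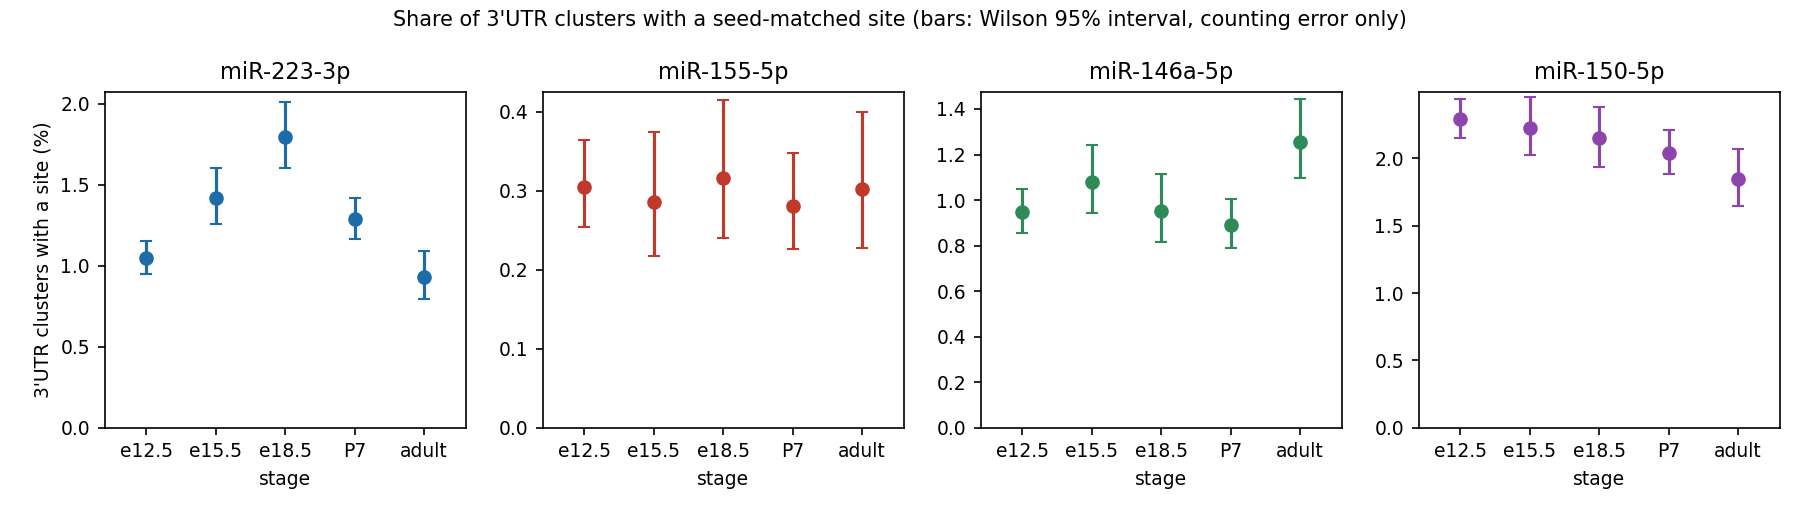
Percent of the 3′UTR clusters of a library that hold a seed-matched site of the miRNA (vertical axis, a separate scale for each miRNA) by stage (horizontal axis), with Wilson 95% intervals that cover counting error only. miR-223-3p is highest at e18.5 (1.80%), miR-146a-5p in the adult (1.26%), and miR-150-5p at e12.5 (2.29%).

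The length of the match was compared beside that of all miRNAs. Among the 3′UTR sites of miR-223-3p, 57.9% (52.2 to 63.5) had at least 7 matched bases at e18.5 and 54.3% (49.3 to 59.3) at P7, where all miRNAs had 50.3% and 48.5%. At e12.5, e15.5 and in the adult, miR-223-3p had 46.1%, 49.4% and 45.3%, beside 47.4%, 49.6% and 48.9% over all miRNAs. The 8mers, the longest matches, made up 15.52% of its sites at e18.5, then 14.4% at P7, 13.5% at e15.5, 10.8% in the adult and 8.70% at e12.5, where all miRNAs had between 8.41% and 10.3%. miR-146a-5p had fewer long matches than all miRNAs together in every library, from 41.6% at e12.5 to 47.4% at e18.5, but except at e12.5 its intervals held the value of all miRNAs. miR-150-5p ran from 43.7% at P7 to 51.2% at e15.5. Its interval at P7 (39.8 to 47.7) lay below the 48.5% of all miRNAs, and in the other libraries it held their value. For miR-155-5p the numbers were small, and its 57.7% at e15.5 (44.2 to 70.1) and 37.5% in the adult (25.2 to 51.6) had intervals that held the value of all miRNAs. No test was made of these shares.

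**Figure D3:**
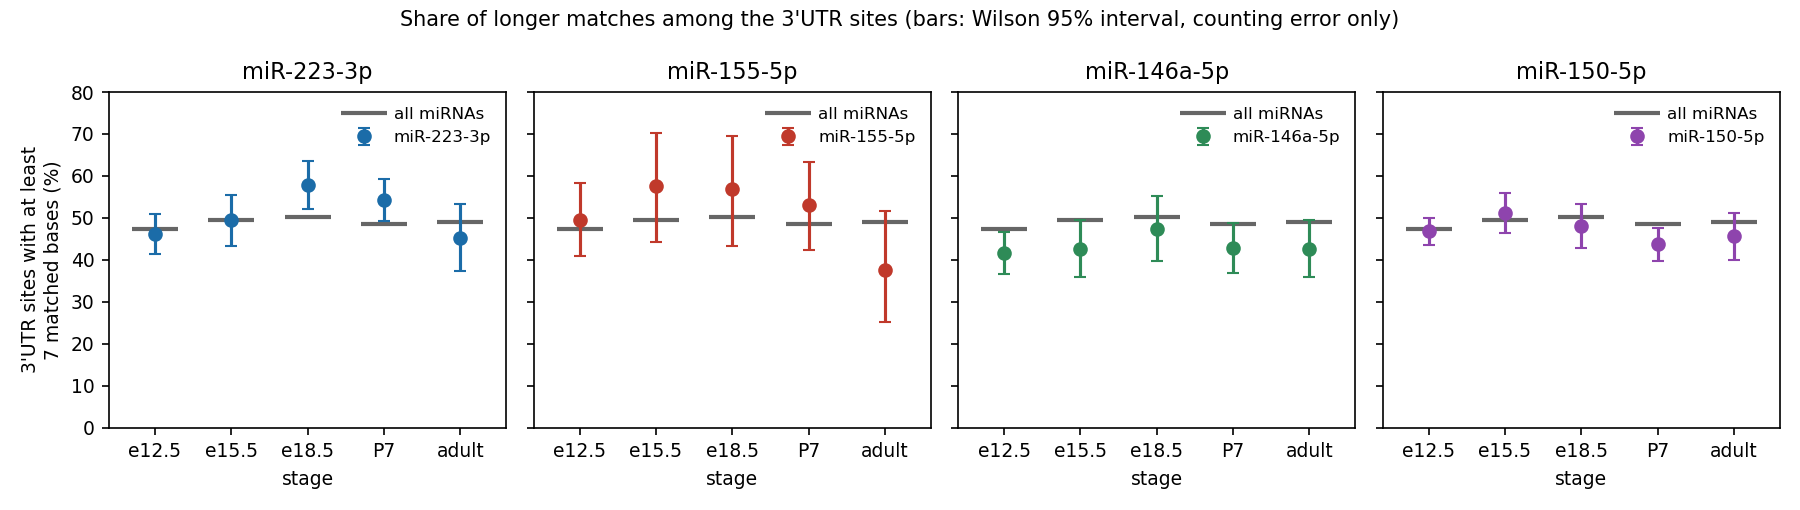
Percent of the 3′UTR sites of a miRNA with at least 7 matched bases (vertical axis) by stage (horizontal axis). Points with Wilson 95% intervals (counting error only) stand for the named miRNA and grey dashes for the sites of all miRNAs. The interval of miR-223-3p lies above the dash at e18.5 and P7, and the points of miR-146a-5p lie below it at every stage, with intervals that hold the dash except at e12.5.

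The share of sites in the coding sequence (CDS) was higher in the adult than at e12.5 for each of the 4 miRNAs and for all miRNAs. The CDS held 32.1% of the miR-223-3p sites at e12.5 and 49.0% in the adult, and the corresponding values were 28.9% and 45.2% for miR-146a-5p, 26.2% and 47.6% for miR-150-5p and 33.3% and 46.7% for miR-155-5p. Over all miRNAs they were 34.6% and 52.8%. The 3′UTR held between 21.6% and 31.7% of the miR-223-3p sites, and between 24.4% and 34.6% of the miR-155-5p sites. A site in several regions was counted in each.

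Reads at a site count all Ago there, whichever miRNA it carries, and the median over 3′UTR sites was compared with that of all miRNAs. For miR-223-3p it was 38 reads at e12.5, then 38 at e15.5, then 30 at e18.5, then 19 at P7 and 26 in the adult, beside 34, 37, 30, 18 and 26 over all miRNAs. miR-150-5p lay at 35, 35.5, 33, 16 and 21.5 reads in the same order. miR-155-5p lay furthest from all miRNAs at e18.5, with 39 reads over 51 sites beside 30. There its 22 6mers had a median of 44 reads beside 30. Its 29 sites of at least 7 matched bases had 18 beside 31. With means in place of medians the gaps were wider, and miR-150-5p had 24.5 reads at P7 and 28.6 in the adult, beside 63.9 and 75.1 over all miRNAs, whose highest sites had 259178 and 431803 reads. The deposited conservation score runs from 0 to 1, and the miRNAs differed more in it than in reads. The median 3′UTR site of miR-155-5p scored 0.88 at e12.5 and 0.78 in the adult, whereas that of miR-150-5p scored 0.07 in both, beside 0.36 and 0.34 over all miRNAs. The median predicted free energy was −6.80 for miR-155-5p and −11.6 for miR-150-5p at e12.5, where all miRNAs had −10.3 in the unit of the tables.

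Genes with a 3′UTR site in any library numbered 877 for miR-223-3p, 261 for miR-155-5p, 751 for miR-146a-5p and 1509 for miR-150-5p, of 11065 genes with any 3′UTR cluster. Most pairs of a miRNA and a gene were listed in a single library, for these miRNAs as for others. The share was 62.9% for miR-223-3p, 79.7% for miR-155-5p, 68.6% for miR-146a-5p and 62.4% for miR-150-5p, beside 65.9% of the 262106 pairs of the 391 miRNAs listed in every library. The libraries differed in depth, with 15914 to 39452 clusters in 3′UTRs, so a gene missing from a library may have been below its limit. Of the miR-223-3p genes, 552 were listed in 1 library, 177 in 2, 84 in 3, 52 in 4 and 12 in all 5. For miR-155-5p, 208 of its genes were in 1 library and 1 in all 5. For miR-146a-5p these numbers were 515 and 11, and for miR-150-5p 942 and 17. In the CDS, miR-223-3p had sites in 1085 genes, miR-155-5p in 303, miR-146a-5p in 983 and miR-150-5p in 1911, and for each of them more genes were listed in all 5 libraries than for the 3′UTR.

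The 3′UTR sites of at least 7 matched bases that recurred at the same position in the most libraries are described for each miRNA. For miR-223-3p, 6 sites were followed that were listed in all 5 libraries. The sequence of the target strand is shown for 4 of them to compare what lies around the match. Each is 22 bases of GRCm38, written 5′ to 3′, with the bases that pair with the seed and, where present, the A opposite base 1 in capitals.
C1galt1c1: atggttctgagaatgACTGACA
Kcnk6: aggattttgactgcAACTGACA
Rhob: attttttttaaataAACTGACA
Acat2: atgactggaactggAACTGACA
C1galt1c1, which encodes the chaperone of the enzyme that builds core O-glycans, has a 7mer-A1 site at chrX:38631166-38631172 on the minus strand. It had 473 reads at e12.5, then 1046 at e15.5, then 1514 at e18.5, then 134 at P7 and 70 in the adult. This site was highest at e18.5, as was miR-223-3p, also per 1000000 cluster reads (116 at e18.5). The tables list it as 3′UTR, while GENCODE vM21 has no 3′UTR exon of C1galt1c1 there. Kcnk6, a background potassium channel, has an 8mer in its last exon, chr7:29223735-29223741 on the minus strand, with 472, 262, 314, 260 and 104 reads in the order of the stages. Kat6a, a histone acetyltransferase needed for blood stem cells, has a 7mer-A1 site at chr8:22940698-22940704 on the plus strand, with 101, 21, 193, 181 and 67 reads. When scaled per 1000000 cluster reads, both were highest at e18.5, at 24.1 and 14.8. Rhob, a small GTPase of the actin cytoskeleton, has an 8mer at chr12:8497768-8497774 on the minus strand in its only exon, with 118, 60, 88, 24 and 6 reads. Acat2, an enzyme at the start of sterol synthesis, has an 8mer at chr17:12943066-12943072 on the minus strand, with 216, 53, 10, 15 and 24 reads, and was highest at e12.5. Atp2b1, a calcium pump of the plasma membrane, has an 8mer at chr10:99023331-99023337 on the plus strand, with 78, 6, 35, 20 and 32 reads.

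The miR-155-5p sites of this length were listed in at most 4 libraries, and their highest reads were at different stages. They are shown for 3 genes, with the capitals as above.
Picalm: tacatttaaaactcAGCATTAg
Kbtbd2: ttaatttaataacaAGCATTAc
Abcb10: cagactggtgagaaAGCATTAt
Picalm, a clathrin adaptor of endocytosis, has a 7mer-m8 site at chr7:90208432-90208438 on the plus strand, with 535 reads at e12.5, then 1019 at e15.5, then 68 at e18.5 and then 70 at P7. Kbtbd2, a substrate adaptor of a ubiquitin ligase, has one at chr6:56777829-56777835 on the minus strand, with 611, 1252, 77 and 22 reads at the same stages. Abcb10, a mitochondrial transporter of red cell precursors, has one at chr8:123952541-123952547 on the minus strand, with 4093 reads at e12.5, then 1909 at e15.5 and 122 at e18.5. None of these 3 sites was listed in the adult. Sort1, a sorting receptor, had 35, 41, 23 and 102 reads from e12.5 to P7. The other genes had their highest reads after birth. Zfp568, a zinc finger repressor, had 18 reads at e18.5, then 274 at P7 and 234 in the adult. Slc38a4, an amino acid transporter, had 31 reads at e12.5, 53 at P7 and 282 in the adult. The highest reads of Picalm, Kbtbd2 and Abcb10 were at e12.5 or e15.5, and not at e18.5, where miR-155-5p was most abundant.

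For miR-146a-5p, 3 of the 6 sites were listed in all 5 libraries.
Btg2: ccctggcactctactGTTCTCA
Nptn: ttataacctgactggGTTCTCA
Mef2a: cccaaaggataagcAGTTCTCA
Btg2, an antiproliferative partner of the mRNA deadenylase, has a 7mer-A1 site at chr1:134077333-134077339 on the minus strand, 33 bases into the 3′UTR, with 396, 250, 217, 189 and 72 reads in the order of the stages. Nptn, a cell adhesion protein of the immunoglobulin family, has one at chr9:58652758-58652764 on the plus strand, with 46, 297, 93, 84 and 124 reads. Mef2a, a transcription factor, has an 8mer at chr7:67240416-67240422 on the minus strand, with 27 and 19 reads at e12.5 and e15.5 and 272, 211 and 195 at e18.5, P7 and in the adult. The reads of the Mef2a site were thus higher in each of the 3 later libraries than in both earlier ones. Igf2, the fetal growth factor, was listed with 7 reads at e12.5, then 431 at e15.5, then 80 at e18.5 and then 105 at P7. Lamp2, a protein of the lysosome membrane, had 28, 87, 54 and 191 reads at e12.5, e18.5, P7 and in the adult. Ccnd2, a cyclin of the G1 phase, had 123, 28, 231 and 14 reads at the same stages.

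For miR-150-5p, 5 of the 6 sites were in all 5 libraries. Hspa5, the chaperone of the endoplasmic reticulum, has an 8mer at chr2:34776169-34776175 on the plus strand, with 426, 319, 193, 14 and 40 reads. Eif5, a translation initiation factor, has an 8mer at chr12:111545432-111545438 on the plus strand, with 287, 24, 44, 21 and 29 reads. Kng2, a kininogen, had 75, 54, 17, 55 and 22 reads, and Cox4i1, a subunit of cytochrome c oxidase, 77, 12, 13, 13 and 46. The site in Atp2b1 lies at chr10:99023319-99023325, just before the miR-223-3p site of the same gene, and had 18, 6, 35, 20 and 32 reads, which from e15.5 on are the numbers of the miR-223-3p site. Igf2 has a 7mer-m8 site at chr7:142652008-142652014 on the minus strand, with 2001 reads at e12.5, then 79 at e15.5, then 137 at e18.5, then 144 at P7 and no entry in the adult. The reads of Hspa5, Eif5 and Igf2 were highest at e12.5, and per 1000000 cluster reads those of Eif5 and Igf2, at a stage where miR-150-5p had 15.9 rpm. Of the 2001 reads of Igf2, 1883 were in the first list of e12.5, in which miR-150-5p had 3 reads.

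**Figure D4:**
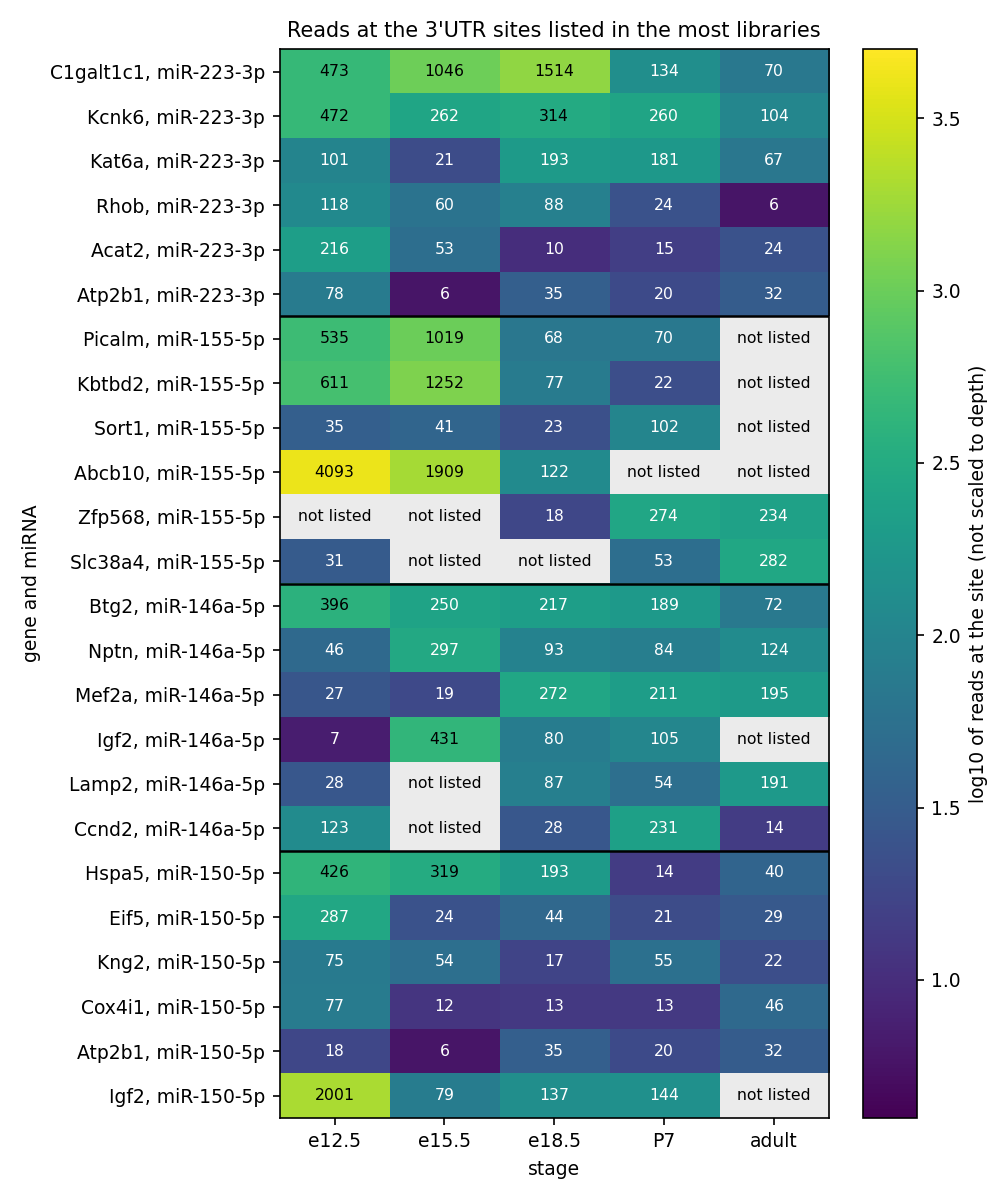
Reads at the 3′UTR site of at least 7 matched bases that recurred in the most libraries, for 6 genes of each miRNA (rows) by stage (columns). The colour is the log10 of the reads, which are printed in the cells and are not scaled to depth, and grey cells had no entry. The miR-155-5p rows have no entry in the adult except Zfp568 and Slc38a4, while all miR-223-3p rows are filled.

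Targets known from the literature were looked up from a list of 12 or 16 genes for each miRNA. The lists were chosen with earlier results of these data known. The share over all genes, given beside them here and below, takes no account of 3′UTR length or number of clusters. The known targets were not tested against it. For miR-223-3p, 11 of 12 had a 3′UTR cluster of any kind and 6 of these had a miR-223-3p site there, beside 7.93% of all genes with a 3′UTR cluster. Rhob, described above, has a second site, a 7mer-m8 at chr12:8498391-8498397, with 81 reads at e12.5, then 45 at e15.5, then 536 at e18.5 and then 104 at P7. Stmn1, which destabilises microtubules, has a 7mer-m8 at chr4:134473415-134473421, 15 bases into its 3′UTR, with 35, 39, 124 and 15 reads at these stages. Lmo2, a partner of the transcription factors of blood stem cells, has an 8mer at chr2:103981330-103981336 with 36, 99 and 37 reads at e15.5, e18.5 and P7. Fbxw7, the substrate receptor of a ubiquitin ligase, has an 8mer at chr3:84977776-84977782 with 45, 119 and 27 reads at e12.5, e18.5 and P7. Igf1r, the receptor of insulin-like growth factors, has an 8mer with 21, 144, 57 and 360 reads from e12.5 to P7, and Nfia an 8mer with 17 reads at P7. Of these 6 genes only Rhob had a site in the adult. When scaled per 1000000 cluster reads, the second Rhob site, Stmn1, Lmo2 and the 8mer of Fbxw7 were highest at e18.5, at 41.2, 9.53, 7.61 and 9.15. Igf1r and Nfia were highest at P7. The e18.5 library had the fewest cluster reads, 13008703 beside 44867326 at e12.5. Btg2 and Mef2a of miR-146a-5p (16.7 and 20.9) and Atp2b1 of miR-150-5p (2.69) were also highest there. The other recurring sites of miR-155-5p, miR-146a-5p and miR-150-5p were highest elsewhere, and the share over all sites was not counted. Mef2c, E2f1, Cebpb, Chuk and Foxo1 had 3′UTR clusters and no miR-223-3p site.
Stmn1: taagttgtcccgagAACTGACt
Lmo2: aggctagccatagtAACTGACA
Fbxw7: agacaagagaccgtAACTGACA

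For miR-146a-5p, 4 of 12 known targets had a 3′UTR site, beside 6.79% of all genes. Traf6, the ubiquitin ligase of Toll-like receptor signalling, has an 8mer at chr2:101698835-101698841 with 34 reads at e12.5 and 9 at P7. Irak2, a kinase of the same pathway, has 4 sites, among them an 8mer at chr6:113694266-113694272 with 78 reads at e18.5 and a 6mer with 250 reads at e15.5 and 9 at e18.5. Notch1 has an 8mer with 21 reads at P7, and Card10 a 6mer with 24 reads at P7 and 36 in the adult. Irak1, Numb, Smad4, Relb, Sort1 and Robo1 had no site of miR-146a-5p in any part of the mRNA, and Egr1 had one in the 5′UTR.
Traf6: gtactttggagtctAGTTCTCA
Irak2: ccggtgtctccgcaAGTTCTCA

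The known targets of miR-155-5p and miR-150-5p were looked up in the same way. For miR-155-5p, 3 of 15 with a 3′UTR cluster had a site, beside 2.36% of all genes: Picalm, Maf with 15 reads at P7 and Tab2 with 7 reads at e18.5. Bach1, Jarid2, Spi1, Socs1, Inpp5d and Cebpb were among the 12 with 3′UTR clusters and no site. For miR-150-5p, 2 of 10 had a site, beside 13.6% of all genes: Igf2, described above, and Cxcr4, the chemokine receptor, with 23 reads at P7. Myb had no site of miR-150-5p, and in Slc2a1 and Cbl the sites lay in the CDS.

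Genes shared by the lists of targets were given as a share of each list, beside the share of all 11065 genes, which was 7.93% for miR-223-3p, 2.36% for miR-155-5p, 6.79% for miR-146a-5p and 13.6% for miR-150-5p. No test was made of these overlaps. miR-223-3p and miR-150-5p shared 215 genes, 24.5% of the former list and 14.2% of the latter. miR-146a-5p and miR-150-5p shared 205 genes, or 27.3% and 13.6%. miR-223-3p and miR-146a-5p shared 127 genes, or 14.5% and 16.9%, and miR-155-5p shared between 33 and 63 genes with the others. Sites of at least 7 matched bases of at least 3 of the 4 miRNAs in 1 library were found in the 3′UTRs of 7 genes, of 1558 with such a site of any of them. A pair of them was named after their values were seen. Tnrc6b, which encodes a partner of Ago in silencing, had such sites of all 4 miRNAs over all libraries, each with at most 96 reads. In Clasp1, a microtubule-binding protein, an 8mer of miR-146a-5p at chr1:118607585-118607591 lies just before a 7mer-A1 site of miR-155-5p at chr1:118607597-118607603, with 126 and 127 reads at e12.5 and 54 and 61 at e15.5.

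Reads in clusters on marker genes of the cell types of liver were summed for whole lists. For the neutrophil and monocyte lineage, 9 of 10 genes had a cluster at e12.5 and e15.5, 10 at e18.5 and P7, and 3 in the adult. Their reads per 1000000 cluster reads were 142 at e12.5, then 468 at e15.5, then 1635 at e18.5, then 402 at P7 and 12.98 in the adult. The sum was highest at e18.5 and lowest in the adult, as were the level of miR-223-3p and the sum of the lymphocyte genes. The sum of the erythroid genes was too, but it counts both Hba-a1 and Hba-a2, which had the same reads at e18.5. In the adult S100a8, S100a9, Ngp, Camp, Mpo, Elane and Prtn3 had no listed cluster. Lymphocyte genes were close to the limit of the tables, with 2 to 6 of 10 genes listed and between 0.964 per 1000000 cluster reads in the adult and 62.9 at e18.5, and Cd4, Cd8a and Pax5 had none in any library. Macrophage and Kupffer cell genes ran from 8.05 per 1000000 cluster reads at e15.5 to 150 in the adult, with 3 to 8 of 9 genes listed, and Adgre1 was never listed. Erythroid genes lay between 1637 in the adult and 96307 at e18.5. Of the latter, Hba-a1 and Hba-a2 held 44948 each with the same reads, and the other erythroid genes listed were highest at e15.5. Hepatocyte genes lay between 1520 at e12.5 and 11164 in the adult, where Alb alone held 6218. Alb, Cps1 and Serpina1a were highest in the adult, and the other hepatocyte genes in an earlier library. Genes common to leukocytes ran from 17.7 per 1000000 cluster reads at e12.5 to 84.0 at e18.5. Endothelial genes lay between 14.6 at e12.5 and 203 at P7, with 157 in the adult, and were highest at P7 like miR-146a-5p and miR-150-5p. The part of these cells in the values of the 4 miRNAs was not tested.

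**Figure D5:**
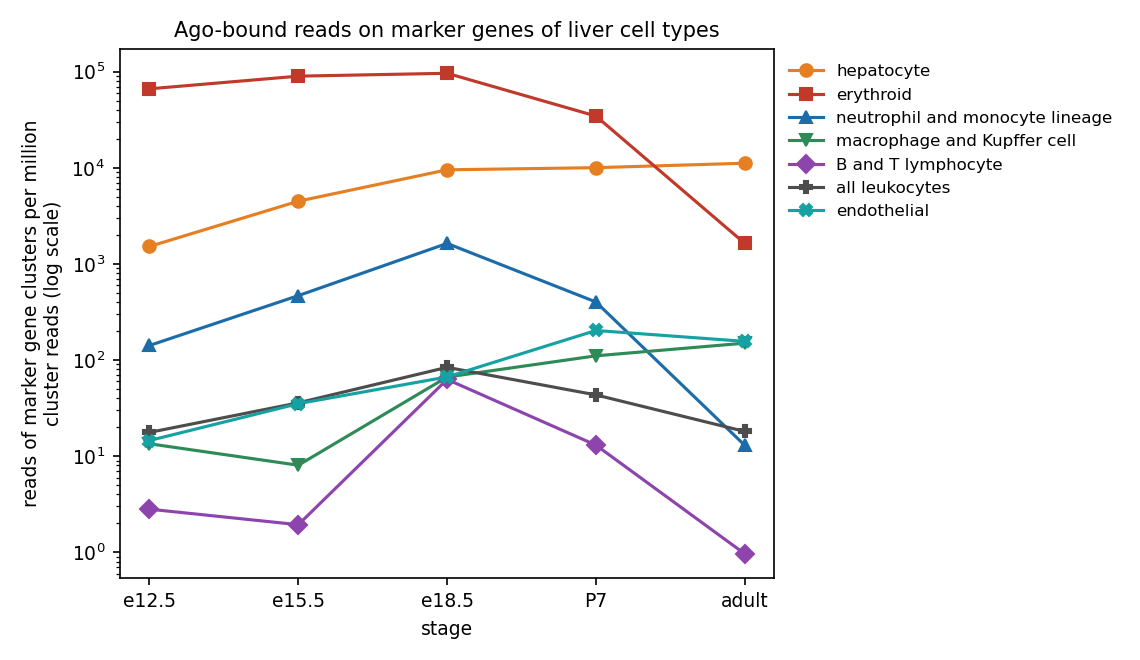
Reads in clusters on the marker genes of each cell type per 1000000 cluster reads (vertical axis, log scale) by stage (horizontal axis), as sums over whole lists. The neutrophil and monocyte list is highest at e18.5 (1635) and lowest in the adult (12.98). The sum of the hepatocyte genes is highest in the adult (11164), where Alb alone holds 6218.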

How the data were processed

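The interaction tables of the 5 stages were used, 1 per stage, grouped by the sample labels. The authors mapped the reads with Bowtie to mm10 (the labels also name mm9), joined overlapping reads into clusters and searched them for seed matches. The deposited read number of a site is a signal that is not scaled to library size, with a minimum of 5. In 9.67% of the clusters the sites carried more than 1 read number. The deposited conservation and free energy are scores whose method is not given in the sources used here. What the number in an interaction name stands for is not stated, and the analysis treats it as the number of reads of that miRNA, with totals between 7781484 and 25546696 reads per library. Clusters of the 2 lists of an embryonic table that overlap on a strand were counted once, and reads were added up.

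Abundance was compared among miRNAs with at least 10 rpm in either library. Site shares were compared with two-sided Fisher's exact tests over seed families that had 100 or more 3′UTR clusters when the pair of libraries was added up, Benjamini-Hochberg adjusted, threshold 0.05, with clusters as units that are not replicates. The test was checked on simulated data. The members, marker lists, known targets and rules were chosen with earlier results of these data known. The genes named are, for each miRNA, the 6 with a site of at least 7 matched bases in the most libraries and the known targets with a site. Sites of miR-150-5p are given by position, and some genes of the lists are not reported here by name. Alternatives covered the lists, gene copies, totals, seed length, read minimum, regions, genes, family minimum and means of reads. Python 3.11.15, numpy 2.4.6, pandas 2.3.3, scipy 1.17.1, pysam 0.24.0 and matplotlib 3.10.9 were used, with GENCODE vM21.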

Additional observations from a re-analysis of the deposited data

How the results depend on the processing

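Of the 68 alternative values of the abundance ratios, 49 kept their direction and their side of the 2-fold mark. For miR-155-5p in the adult against e12.5 the first list alone gave 0.86 and the study's library totals 0.61, against −0.38. Taking the median miRNA as 0, chosen after the data were seen, gave −0.30 for miR-223-3p, 1.69 for miR-155-5p in the adult against e12.5, 0.89 for miR-155-5p at e18.5 against e12.5, and 1.71, −0.059 and 0.18 for miR-155-5p, miR-146a-5p and miR-150-5p in the adult against P7. The library totals of the study as divisor, also added later, gave 0.92 for miR-155-5p at e18.5 and −0.84 for miR-150-5p in the adult against P7. These took 1 total per stage. The study lists a second one for e18.5, and whether the table of that stage holds its reads is not given in the sources used here. With both added up, chosen after the data were seen, e18.5 against e12.5 gave −0.029 for miR-223-3p, −1.45 for miR-155-5p, −0.78 for miR-146a-5p and 0.14 for miR-150-5p, beside a median of −2.36, and 2 miRNAs were higher and 278 lower of 304. Without miR-142-3p, miR-144-3p and miR-451a in the total, miR-155-5p stood at −1.63 in the adult and 0.32 at e18.5, and miR-146a-5p at 0.99 at e18.5, all against e12.5. For miR-155-5p at e18.5, the second lists alone gave 0.64 and the sum over gene copies 0.88. Of the 418 miRNAs, 97 were higher and 251 lower in the adult than at e12.5, and 170 and 159 with the median as 0, 123 and 165 of 350 with the study's totals, and 54 and 390 of 518 without the 3 miRNAs. Against P7 the 43 higher and 222 lower of 381 became 115 and 141 with the median as 0 and 51 and 169 of 344 with the study's totals. At e18.5 against e12.5 the 108 higher and 85 lower of 440 became 71 and 235 of 532 without the 3 miRNAs, 120 and 146 of 482 with the first lists and 61 and 61 of 336 with the study's totals.

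Of 71 alternative values of the site shares, 47 kept their direction and call. Genes in place of clusters gave −0.91 for miR-223-3p, −0.84 for miR-155-5p and −0.35 for miR-146a-5p in the adult against e12.5, 0.020, −0.74, −0.82 and −0.82 for miR-223-3p, miR-155-5p, miR-146a-5p and miR-150-5p at e18.5 against e12.5, and 0.11 and −0.51 for miR-146a-5p and miR-150-5p in the adult against P7. The median family moved with it, to −0.84, −0.97 and −0.29, and of the families 308 of 365, 413 of 438 and 119 of 366 then had a smaller share; the cause was not tested. Clusters of every region gave 0.17 for miR-223-3p in the adult and −0.20 for miR-150-5p at e18.5, both against e12.5, and 0.34 for miR-155-5p in the adult against P7. With at least 7 matched bases miR-146a-5p stood at 0.57 against P7 and miR-150-5p at −0.28 against e12.5, and the first lists alone gave 0.22 for miR-146a-5p in the adult against e12.5. Values that did not pass the threshold also changed sign. For miR-155-5p they were 0.0087 with at least 10 reads and 0.24 with every region in the adult against e12.5, −0.19 with the second lists at e18.5, and −0.0049 with at least 10 reads and −0.37 with genes against P7. For miR-146a-5p at e18.5 the first lists gave −0.13, and for miR-150-5p at least 7 matched bases gave 0.017 at e18.5 and 0.0085 against P7, and every region 0.029 against P7. Larger and smaller shares, 67 and 77 of 366 families in the adult against e12.5, became 33 and 44 of 249 with the first lists and 197 and 72 of 388 with every region, and 49 and 40 of 275 with at least 7 matched bases. At e18.5 the 27 and 131 of 439 became 12 and 8 of 250 with the first lists, 28 and 80 of 371 with the second, 28 and 52 of 332 with at least 7 matched bases, 25 and 70 of 421 with at least 10 reads and 101 and 188 of 476 with every region. Against P7 the 40 and 11 of 365 became 25 and 5 of 245, 33 and 19 of 344 and 223 and 36 of 412 with the last 3 of these. With genes, 15, 4 and 4 families had a larger share in the 3 comparisons. miR-155-5p had too few clusters to be tested with at least 7 matched bases or in the first lists alone. Target genes with at least 7 matched bases numbered 459 for miR-223-3p, 144 for miR-155-5p, 352 for miR-146a-5p and 771 for miR-150-5p, and those in at least 2 libraries 325, 53, 236 and 567. With means in place of medians all 20 values of reads at the sites of the 4 miRNAs were larger. No paired analysis was possible because each stage is 1 library. Depth limits miR-155-5p, with 48 to 120 clusters a library, and miR-150-5p at e15.5, with 115 reads.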

Other observations

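The 2 lists of an embryonic table held largely different sites of the 4 miRNAs. Of the miR-223-3p sites, 226 were in both lists of e12.5, which is 45.2% of the first and 17.51% of the second, and 175 were in both lists of e18.5, or 31.0% and 29.2%. Over all miRNAs the shares were 41.1% and 12.46% at e12.5 and 19.9% and 26.1% at e18.5. For miR-150-5p at e18.5 they were 13.8% and 23.6%.

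Sites of different members in the same cluster were counted, with no comparison to other sets of miRNAs. Of the 3′UTR clusters with a site of any of the 4, 27 of 1784 at e12.5, 12 of 901 at e15.5, 14 of 828 at e18.5, 9 of 1323 at P7 and 10 of 679 in the adult held sites of 2 or more. The sites of miR-146a-5p and miR-146b-5p, with the same seed, were nearly the same, with 1519 distinct sites shared at e12.5 beside 16 listed for miR-146a-5p alone and 10 for miR-146b-5p alone.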
